A study of Drosophila melanogaster with 4 samples.

Results

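The age change of the Ago2 over Ago1 ratio was measured for single small RNA sequences in whole male Drosophila melanogaster raised at 25 °C. All flies carried a FLAG-HA tag on Ago2. Ago1 was pulled down with the antibody ab5070 and the tagged Ago2 with anti-FLAG M2 beads, each at 3 d and at 30 d of age, so there were 4 groups of 1 library each and no library of untagged flies or of unbound RNA was analysed here. How many flies went into a library is not given in the sources used here. For each distinct sequence, the log2 ratio of Ago2 to Ago1 at 3 d was subtracted from the same log2 ratio at 30 d. This difference, called D below, was taken on counts scaled to RPM (reads of a sequence per 1000000 listed reads of its library) with a pseudocount of 1 RPM. A D of 1 means that the ratio was 2-fold higher at 30 d than at 3 d, and D also equals the log2 age change with Ago2 minus the log2 age change with Ago1. Of 7181 distinct sequences listed, the 540 that averaged 10 RPM or more across the libraries were kept. They held 99.6% to 99.8% of the reads of each library. With 1 library per group no test was possible, a difference has no replicate check, and the 95% intervals given cover counting error only. At 3 d the Ago1 library held 26636441 listed reads and the Ago2 library 13491805, and at 30 d they held 26451651 and 34554191, so a given RPM rests on fewest reads with Ago2 at 3 d.

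Argonaute proteins hold a small RNA and use it to find target RNAs. In flies Ago1 takes up most miRNA guide strands, while Ago2 takes up siRNAs and some miRNA strands, and it is in Ago2 that small RNAs receive a 2'-O-methyl group at their 3' end. The first bases of a miRNA form the seed that pairs with targets, so a form that starts at another base has another seed, while forms that differ at the 3' end keep it. The exonuclease Nibbler is known to shorten the 3' ends of some fly miRNAs held by Ago1, miR-34 among them. Each miRNA hairpin gives a 5' and a 3' strand, here called arms, and the sequences of an arm that differ at their ends are its forms. The annotated form is the one with the mature length in the Ensembl annotation of the fly genome. Of the 540 sequences, 473 belonged to 102 named arms and 67 to 30 arms that were left unnamed. Names come from background knowledge of fly miRNAs and not from the files.

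Forms of the same arm that moved apart at the 3' end are printed first, 5' to 3', with the seed at bases 2 to 8 in capitals. They share a seed within each arm and differ only in length.
miR-277-3p, 23 nt (annotated): tAAATGCActatctggtacgaca
miR-277-3p, 20 nt: tAAATGCActatctggtacg
miR-305-3p, 23 nt (annotated): cGGCACATgttgaagtacactca
miR-305-3p, 20 nt: cGGCACATgttgaagtacac
miR-305-3p, 18 nt: cGGCACATgttgaagtac
miR-34-5p, 24 nt (annotated): tGGCAGTGtggttagctggttgtg
miR-34-5p, 21 nt: tGGCAGTGtggttagctggtt
miR-34-5p, 18 nt: tGGCAGTGtggttagctg
let-7-5p, 21 nt (annotated): tGAGGTAGtaggttgtatagt
let-7-5p, 18 nt: tGAGGTAGtaggttgtat
miR-957-3p, 22 nt (annotated): tGAAACCGtccaaaactgaggc
miR-957-3p, 19 nt: tGAAACCGtccaaaactga
miR-970-3p, 21 nt (annotated): tCATAAGAcacacgcggctat
miR-970-3p, 19 nt: tCATAAGAcacacgcggct
miR-10-5p, 22 nt (annotated): aCCCTGTAgatccgaatttgtt
miR-10-5p, 20 nt: aCCCTGTAgatccgaatttg
miR-10-5p, 26 nt: aCCCTGTAgatccgaatttgttttat

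Forms that start inside the annotated 5' end are printed next, with their annotated form here or in the first set. Their seed is shifted, and as a class they were higher in D more often than forms with the annotated start. The miR-956-3p pair differs, as both of its printed forms had a negative D.
miR-277-3p, 22 nt, start 1 nt inside: aAATGCACtatctggtacgaca
let-7-5p, 20 nt, start 1 nt inside: gAGGTAGTaggttgtatagt
miR-276a-3p, 22 nt (annotated): tAGGAACTtcataccgtgctct
miR-276a-3p, 21 nt, start 1 nt inside: aGGAACTTcataccgtgctct
miR-252-5p, 22 nt (annotated): cTAAGTACtagtgccgcaggag
miR-252-5p, 20 nt, start 2 nt inside: aAGTACTAgtgccgcaggag
miR-956-3p, 23 nt (annotated): tTTCGAGAccactctaatccatt
miR-956-3p, 22 nt, start 1 nt inside: tTCGAGACcactctaatccatt

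The last set holds both strands of the miR-263b hairpin, whose D had opposite signs, the most abundant sequence of the data (miR-263a-5p), and arms with a lower D, among them arms of testis clusters.
miR-263b-5p, 23 nt: cTTGGCACtgggagaattcacag
miR-263b-3p, 22 nt (annotated): aCTGAATTctcgtgggtctgca
miR-263a-5p, 24 nt (annotated): aATGGCACtggaagaattcacggg
miR-92a-3p, 22 nt (annotated): cATTGCACttgtcccggcctat
miR-959-3p, 21 nt, start 1 nt before the annotated start: cTTAGTACtcgggttgataaa
miR-985-3p, 22 nt (annotated): cAAATGTTccaatggtcgggca
miR-962-5p, 25 nt (annotated): aTAAGGTAgagaaattgatgctgtc

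In RPM, most sequences kept their preference for a protein with age, and forms of one arm often moved apart. The Ago2 over Ago1 ratio was at least 2-fold higher at 30 d than at 3 d for 143 sequences (26.5% of the 540) and at least 2-fold lower for 47 (8.7%), while 350 stayed within 2-fold. The median D was 0.26, with quartiles of -0.32 and 1.03 and a range from -3.28 to 4.18. The excess of higher over lower sequences depended on the scaling. RPM fixes only the total of a library, while TMM and median-of-ratios scaling set the typical sequence level between libraries. TMM scaling moved the median of all sequences by -0.31, median-of-ratios scaling by -0.40 and totals without the 10 most abundant sequences by -0.31. The split was then 86 higher to 80 lower, 78 to 88, and 88 to 79. A statement about which sequences stand high or low is therefore made relative to the median of all, and groups whose sign depends on the scaling are named as such.

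In RPM, no sequence went from at least 2-fold more with one protein to at least 2-fold more with the other. At 3 d, 146 sequences (27%) were at least 2-fold higher with Ago2 and 322 (59.6%) at least 2-fold higher with Ago1; at 30 d these were 151 (28%) and 314 (58.1%). The log2 ratio crossed 0 upwards in 21 sequences and downwards in 16. In RPM, age changes of at least 2-fold were more often upward than downward with Ago2, with 125 sequences higher (23.1%) and 32 lower (5.93%), and about even with Ago1, with 60 higher (11.1%) and 54 lower (10%). Neither these counts nor those of the ratio at each age were repeated under the other scalings. The TMM factor was 0.408 (3 d) and 0.548 (30 d) with Ago2, and 2.09 and 2.14 with Ago1. TMM scaling would thus generally lower the age changes with Ago2, and the upward excess may depend on the scaling. It would also raise the Ago2 over Ago1 ratio at both ages. Which protein a sequence prefers, and whether that changes with age, may therefore depend on the scaling too. Age changes with a single protein and levels compared between proteins are given below in RPM as well. Among the 143 sequences with a higher D, the change with Ago2 alone reached 2-fold in 74, the change with Ago1 alone in 36, both in 5 and neither in 28. Among the 47 with a lower D, it was Ago2 alone in 21, Ago1 alone in 20 and neither in 6. Of these calls, 120 of the 143 and 37 of the 47 had at least 10 reads in each library.

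**Figure D1:**
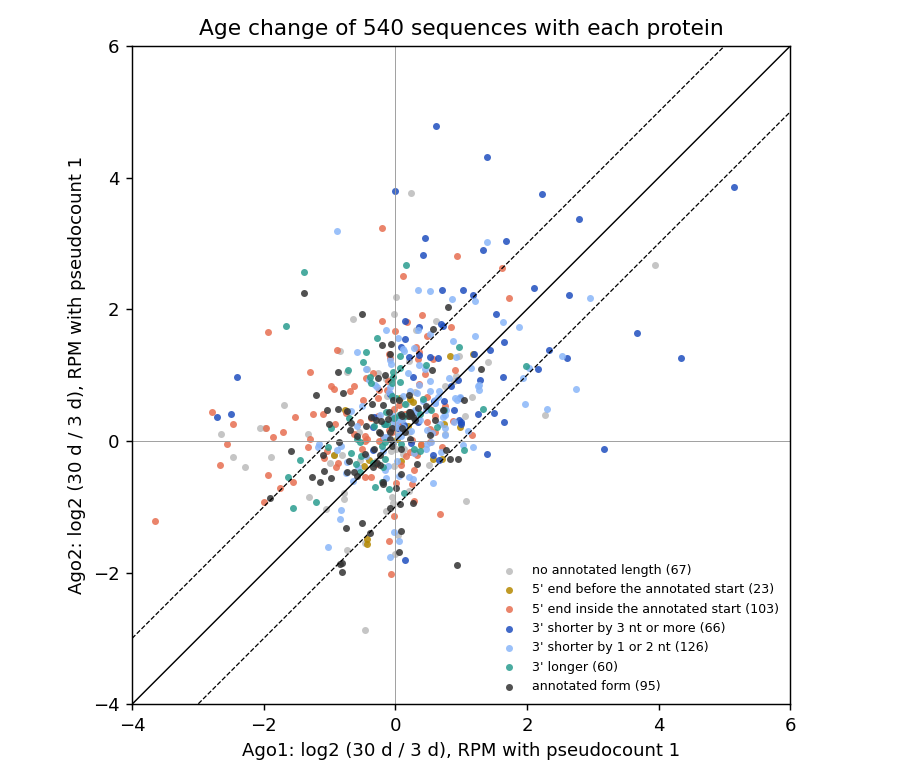
Each of 540 sequences is placed by its log2 age change (30 d over 3 d, RPM with a pseudocount of 1) with Ago1 on the x axis and with Ago2 on the y axis, coloured by its form. The solid line marks a D of 0 and the dashed lines a D of 1 and -1; 143 sequences lie on or above the upper dashed line and 47 on or below the lower one, and long 3' shortening (dark blue) spreads to the right and upwards, away from the annotated forms (black).

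In 101 arms with at least 2 sequences, the range of D within the arm had a median of 1.27, it was at least 1 in 60 arms, and 56 arms had forms on both sides of 0. Summing all forms of an arm left 24 higher and 10 lower of 149 arms. Both a higher and a lower form, each by at least 2-fold, stood in 14 arms. Named among these were bantam-3p, miR-1-3p, miR-8-3p, miR-8-5p, miR-10-5p, miR-34-5p, miR-210-3p, miR-277-3p, miR-305-3p, miR-312-3p, miR-956-3p and miR-957-3p, and the others were left unnamed.

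D varied with length, but not steadily, and many sequences of 18 and 19 nt were higher. Of 60 such sequences from 34 arms, 34 (56.7%) passed 2-fold upwards and 4 (6.67%) downwards, with a median D of 1.10 that stayed between 0.85 and 0.96 under the other scalings. With at least 10 reads in each library, 26 of 48 were higher, against 120 of all 469 sequences with that depth. A form can pass the minimum through a single library in which it is high. With the minimum of 10 RPM set on the mean of the 3 d libraries alone, a choice made after the values had been seen, 25 of 44 such sequences (56.8%) were higher and 1 lower, against 27.3% higher and 7.93% lower of 517 in all. Sequences of 20 nt were different, with 19 higher and 13 lower of 76 and a median D of 0.19, and those of 22 or 23 nt had 44 higher and 17 lower of 217. Among the few sequences of 25 nt, 6 of 11 were higher and 1 lower (median D 1.06). Counted from the annotated end, forms 2 or 3 nt short had median D values of -0.15 and -0.21, while forms 4 and 5 nt short had 0.87 (20 forms) and 2.15 (6 forms).

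Across the whole libraries, reads of at most 19 nt made up 0.662% (3 d) and 0.899% (30 d) of the Ago1 reads, and 1.38% (3 d) and 4.50% (30 d) of the Ago2 reads. Much of the last value was the 19 nt form of miR-263a-5p. Without that arm, the same shares were 0.627%, 0.845%, 0.518% and 1.82%, so the Ago2 library at 30 d stood above the other three. The part of library preparation and size selection in this difference was not tested.

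**Figure D2:**
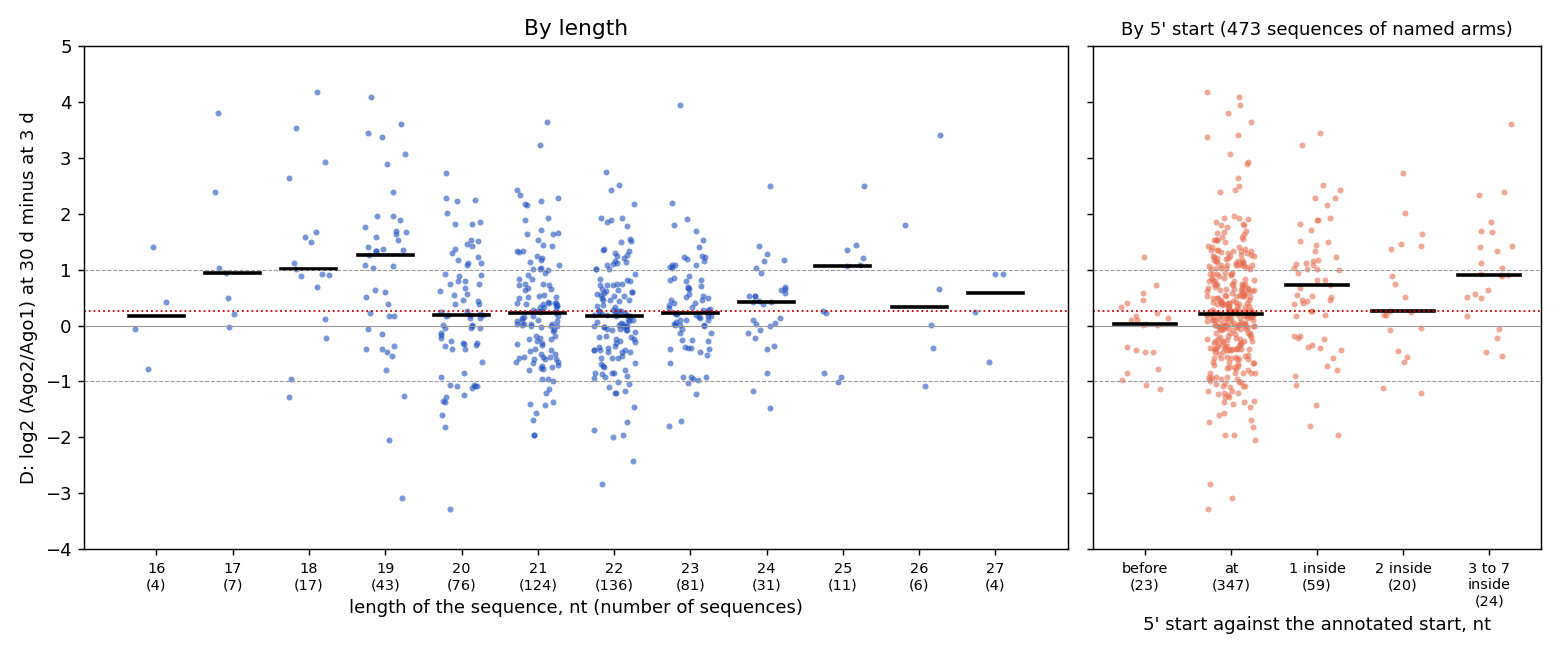
D of each sequence by its length (left) and, for the 473 sequences of named arms, by its 5' start against the annotated start (right). Black bars are medians, the red dotted line is the median of all 540 (0.26) and the dashed lines mark 1 and -1; 18 and 19 nt sequences have medians of 1.02 and 1.27 and the 11 of 25 nt one of 1.06, while those from 20 to 23 nt have medians from 0.17 to 0.23.

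Within an arm, the shortest forms and those of 20 or 21 nt could be set against each other in 31 arms, a comparison chosen after the values by length had been seen. Summed forms of at most 19 nt had the higher D in 21 arms and the lower in 10, with a median difference of 0.51. The arms with the widest gap were miR-277-3p, with a D of 1.56 for its forms of at most 19 nt and -2.10 for those of 20 or 21 nt, miR-9a-5p (3.21 and 0.22), miR-970-3p (4.06 and 1.29) and miR-305-3p (1.40 and -0.96). At the other end stood miR-316-5p (-1.86 and 0.41), miR-957-3p (-1.94 and -0.17) and miR-184-3p (-0.31 and 1.16). The values of miR-9a-5p and miR-957-3p rest on few reads. With Ago2 at 3 d their forms of at most 19 nt stood at 0.371 RPM each, below the pseudocount. For miR-957-3p these forms were at 7.58 and 81.7 RPM with Ago1 and reached 2.43 RPM with Ago2 at 30 d, so its gap would be smaller without the pseudocount.

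miR-277-3p, a miRNA known to act on branched-chain amino acid breakdown, showed the split between neighbouring lengths most plainly. Its 20 nt form had the lowest D of all 540 sequences. That form went from 138 RPM at 3 d to 1246 RPM at 30 d with Ago1, while with Ago2 it stood at 143 RPM and then 131 RPM; pairs of values below are likewise given for 3 d and then 30 d. In RPM it was level between the proteins in young flies, which need not hold under the other scalings. By 30 d it had risen with Ago1 alone, by 3.16 on the log2 scale, for a D of -3.28 (95% interval -3.39 to -3.20). One base shorter, the 19 nt form stood at 26.5 and 128 RPM with Ago1 and at 66.3 and 905 RPM with Ago2, so that the gain was larger with Ago2 and D was 1.53. The 21 nt form went from 571 to 2247 RPM with Ago1 and from 97.6 to 145 RPM with Ago2 (D -1.41). The annotated 23 nt form was lower at 30 d with both proteins, from 31170 to 8295 RPM with Ago1 and from 2626 to 1441 RPM with Ago2, and as the fall was larger with Ago1 its D was 1.04. The 22 nt form, the most abundant of the arm, was at 49907 and 68837 RPM with Ago1 and at 7034 and 6481 RPM with Ago2 (D -0.58).

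miR-305-3p, the partner of a strand known from insulin and Notch signalling in the gut, had a like split between its 18 and 20 nt forms, with higher levels in Ago2. Its 18 nt form stood at 1.16 and 4.65 RPM with Ago1 and at 16.97 and 356 RPM with Ago2, a D of 2.93, or 2.39 (95% interval 1.79 to 2.99) without the pseudocount. The 20 nt form stood at 16.3 and 105 RPM with Ago1 and at 244 and 585 RPM with Ago2. Here the gain was larger with Ago1, and D was -1.35. Between them, the 19 nt form stood at 0.601 and 5.86 RPM with Ago1 and at 29.6 and 151.5 RPM with Ago2 (D 0.22). Its Ago1 level at 3 d lies below the pseudocount, and without the pseudocount the gain was larger with Ago1. The annotated 23 nt form hardly moved, at 3890 and 3317 RPM with Ago1 and at 5263 and 4545 RPM with Ago2 (D 0.02).

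miR-34-5p, known for its increase in ageing flies and for its trimming by Nibbler, differed from both. Its 18 nt form went from 16.2 to 605 RPM with Ago1 and from 29.9 to 446 RPM with Ago2. Its share of the listed reads was thus far higher at 30 d with both proteins, and the gain was larger with Ago1 (D -1.29). The 21 nt form went from 976 to 3041 RPM with Ago1 and from 14.7 to 29.8 RPM with Ago2 (D -0.67). The annotated 24 nt form was at 482 and 160 RPM with Ago1 and at 13.8 and 12.2 RPM with Ago2, a D of 1.42 that came from the Ago1 side.

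In let-7-5p, an arm known for its part in the timing of development and in adult tissues, none of the forms kept had a negative D. The annotated 21 nt form was at 15539 and 13487 RPM with Ago1 and at 301 and 825 RPM with Ago2 (D 1.66). Its 18 nt form was at 95.4 and 130 RPM with Ago1 and at 8.82 and 82.4 RPM with Ago2 (D 2.64). The Ago2 level was higher at 30 d for each of the listed forms from 17 to 22 nt, while the Ago1 level moved by less than 2-fold.

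**Figure D3:**
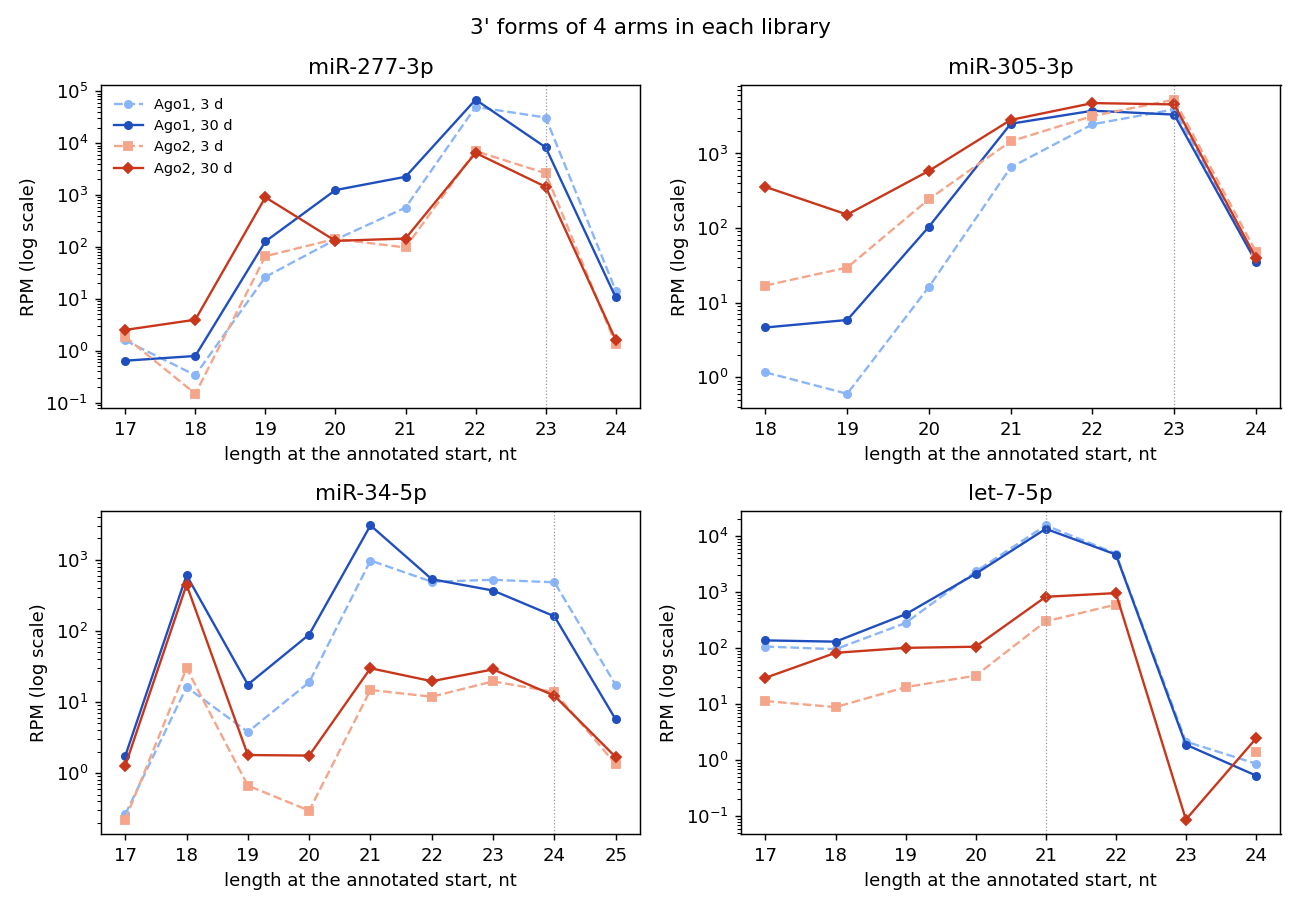
RPM (log scale) of the forms of 4 arms that begin at the annotated start, by length, in the 4 libraries; the dotted line is the annotated length. Among the forms of miR-277-3p that average 10 RPM or more, the Ago1 lines part most at 20 nt (138 to 1246 RPM) and the Ago2 lines at 19 nt (66.3 to 905 RPM); in let-7-5p the Ago2 lines part more than the Ago1 lines from 17 to 22 nt.

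Other arms added to the same picture of unequal lengths. The 19 nt form of miR-957-3p stood at 2.67 and 73.4 RPM with Ago1 and at 0.296 and 2.11 RPM with Ago2; as the last pair rests on 4 and 73 reads, D was -3.08 with the pseudocount and -1.95 (95% interval -3.44 to -0.46) without it. The 19 nt form of miR-316-5p, at 10.2 and 142 RPM with Ago1 and at 4.52 and 16.1 RPM with Ago2, had a D of -2.04. In both arms the gain lay mainly with Ago1. The 19 nt form of miR-970-3p went the other way, from 92.7 to 49.6 RPM with Ago1 and from 6.60 to 68.6 RPM with Ago2, for a D of 4.08 (interval 3.96 to 4.60 without the pseudocount). miR-10-5p, which lies in the Hox gene cluster, joined both directions: its 20 nt form was at 245 and 1426 RPM with Ago1 and at 448 and 1101 RPM with Ago2 (D -1.24). Its 26 nt form, which runs 4 nt past the annotated end, was at 5.63 and 1.10 RPM with Ago1 and at 30.3 and 105 RPM with Ago2 (D 3.41). The annotated 22 nt form was at 15824 and 18361 RPM with Ago1 and at 32548 and 42427 RPM with Ago2 (D 0.17).

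For 80 arms the annotated form could be compared with the sum of its 3'-short forms, where both reached a mean of 10 RPM. The short forms had the higher D in 44 arms and the lower in 36, with a median difference of 0.08. Shares of short forms, here and below, are of the annotated and short forms together, without longer forms or other 5' starts. They were larger at 30 d in 61 of 80 arms with Ago1 and in 69 of 80 with Ago2. The median share went from 27.5% to 33.0% with Ago1 and from 26.02% to 29.6% with Ago2. As classes, annotated forms (95 sequences, 18 higher and 11 lower) had a median D of 0.23, forms 1 or 2 nt short (126, 23 and 10) 0.10 and forms at least 3 nt short (66, 21 and 10) 0.18. All 3 medians are near that of all sequences and were below 0 under each of the other scalings.

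In 8 arms the short forms had the highest D relative to the annotated form: miR-263b-3p (1.77), miR-9c-5p (1.60), miR-9b-5p (1.27), miR-8-5p (1.09), miR-275-5p (1.07), miR-283-5p (0.99), miR-125-5p (0.91) and miR-982-5p (0.89). The 95% counting intervals are taken on raw counts without the pseudocount, so they are not centred on these differences. Their half-width was 1.58 for miR-263b-3p, 1.56 for miR-9b-5p, 1.10 for miR-982-5p and 0.96 for miR-283-5p, so the place of these arms is uncertain. Short forms of miR-263b-3p stood at 0.188 and 0.378 RPM with Ago1, below the pseudocount. In miR-275-5p the share of short forms stayed at 10.8% and 10.7% with Ago1 and went from 46.7% to 64.6% with Ago2. miR-125-5p, from the let-7 complex, had shares of 27.1% and 35.0% with Ago1 and of 42.2% and 66.5% with Ago2. At the opposite end were miR-133-3p (-1.91), miR-210-3p (-1.80), miR-277-3p (-1.50), miR-957-3p (-1.42), miR-1000-5p (-1.28), miR-1-3p (-1.24), miR-1010-3p (-1.19) and miR-10-3p (-1.04). For miR-1-3p the half-width was 2.09, and the sign of its difference rests on the pseudocount. Its short forms were at 0.148 and 1.27 RPM with Ago2. Their share of the annotated and short forms went from 5.75% to 20.2% with Ago1 and from 2.82% to 16.1% with Ago2. Of the whole arm they were a much smaller part. With Ago1 they stood at 7.17 and 45.6 RPM, where the whole arm stood at 795 and 767 RPM. With Ago2 the whole arm stood at 40.8 and 113 RPM. In miR-133-3p, a muscle miRNA, the share of short forms went from 11.1% to 26.6% with Ago1 and from 15.2% to 11.7% with Ago2. miR-277-3p had 61.9% and 89.7% with Ago1 against 73.7% and 84.2% with Ago2.

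Forms that start inside the annotated 5' end stood higher in D than the rest. Of 103 such sequences, 42 (40.8%, against 26.5% of all) passed 2-fold upwards and 6 downwards, and their median D was 0.74. It stayed above 0 under the other scalings, at 0.35 to 0.44, and 0.48 to 0.49 above the median of all sequences. With at least 10 reads in each library, 37 of 89 were higher, against 120 of all 469 sequences with that depth. Their median log2 age change was -0.11 with Ago1, against 0.05 for all sequences, and 0.29 with Ago2, against 0.35. The 54 forms that start exactly 1 nt inside, miR-956-3p left out, had medians of -0.44 with Ago1 and 0.19 with Ago2, and 24 of them were at least 2-fold higher in D. By contrast the 23 forms that start before the annotated end had 1 higher and 2 lower, with a median of 0.03 that was below 0 under the other scalings.

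Within arms the same difference appeared as a lower share with Ago1. In 41 arms both kinds of 5' start reached a mean of 10 RPM, and forms starting inside had the higher D in 27 and the lower in 14. Their share of an arm, here and below, is taken without forms that start before the annotated start. It was lower at 30 d in 28 of 41 arms with Ago1 and in 20 of 41 with Ago2. The median share went from 2.12% to 1.03% with Ago1 and from 1.82% to 1.59% with Ago2. Over whole libraries without miR-956-3p, reads starting inside a named arm went from 2.04% to 1.12% with Ago1 and from 0.695% to 0.899% with Ago2. Whether RNA breakage or trimming of reads moved these shares was not tested.

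In miR-8-3p, abundant in fat body and epithelia, the share starting inside went from 4.40% to 1.18% with Ago1 and from 0.961% to 1.09% with Ago2. Its 19 nt form with a start 4 nt inside was at 1884 and 491 RPM with Ago1 and at 11.7 and 39.1 RPM with Ago2 (D 3.60). The 22 nt form of miR-277-3p that starts 1 nt inside had a D of 2.43, and the share of such starts in that arm went from 3.51% to 1.03% with Ago1 and from 1.71% to 1.32% with Ago2. For miR-252-5p, the 20 nt form with a start 2 nt inside was at 416 and 74.4 RPM with Ago1 and at 77.8 and 93.3 RPM with Ago2, a D of 2.73. That change lay with Ago1, where the annotated form was level at 3530 and 3446 RPM. miR-276a-3p, known from neurons, had a form of 21 nt starting 1 nt inside at 85.9 and 11.6 RPM with Ago1 and at 1.04 and 1.77 RPM with Ago2 (D 3.22, on 14 and 61 reads with Ago2). The 22 nt annotated form of the same arm was also lower with Ago1, at 13699 and 6666 RPM, and was at 642 and 884 RPM with Ago2, so its log2 ratio went from -4.41 to -2.91. In let-7-5p the share starting inside went from 0.633% to 0.450% with Ago1 and from 0.627% to 0.940% with Ago2. miR-1-3p, the main muscle miRNA, was listed mostly by forms starting inside (84.2% and 70.4% of the arm with Ago1, 87.1% and 92.9% with Ago2); its annotated start resembles the start of the sequencing adapter as recalled, and the part of adapter trimming in this was not tested. In miR-34-5p (2.18% and 1.25% with Ago1, 2.02% and 0.647% with Ago2) and miR-275-3p (2.22% and 2.55% with Ago1, 6.54% and 2.54% with Ago2) the share was lower at 30 d with Ago2, and D of the inside starts lay 1.09 and 1.46 below that of the annotated start.

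**Figure D4:**
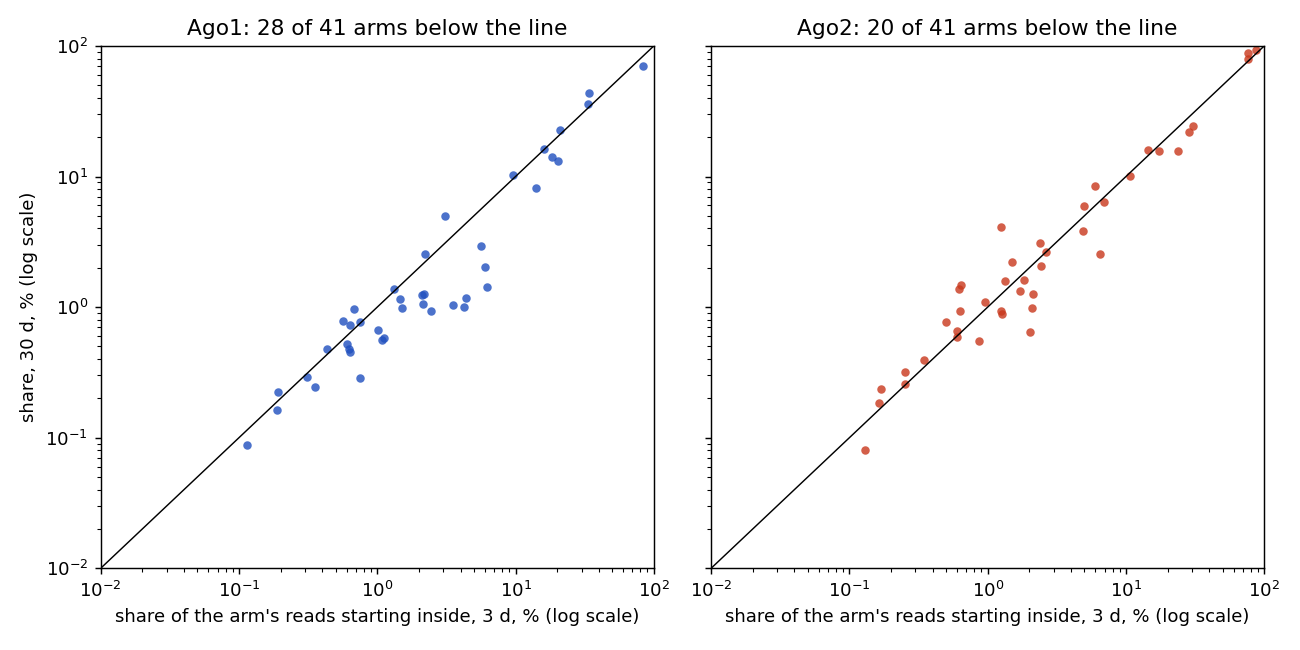
Share of an arm's reads that start inside the annotated 5' end, at 3 d (x axis) and at 30 d (y axis), in percent on log scales, for 41 arms with Ago1 (left) and Ago2 (right). Reads that start before the annotated start are left out of the share. With Ago1 28 of 41 arms lie below the line of equal shares, and with Ago2 20 of 41 do.

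A large share of inside starts with Ago2 was seen in miR-956-3p and in miR-210-3p. In miR-210-3p, a miRNA of the nervous system list, the share went from 20.3% to 13.2% with Ago1 and from 76.7% to 87.9% with Ago2. For miR-956-3p, at 3 d 20.9% of its reads with Ago1 and 76.3% with Ago2 started inside, and at 30 d 22.8% and 79.1%, so the difference between proteins was large at both ages. Its 22 nt form starting 1 nt inside was at 32859 and 39315 RPM with Ago1 and at 174127 and 110893 RPM with Ago2 (D -0.91). The annotated 23 nt form was at 95443 and 100577 RPM with Ago1 and at 42784 and 22023 RPM with Ago2 (D -1.03). Both 5' starts were therefore lower at 30 d with Ago2 and about level with Ago1, and 13 of 18 forms of the arm had a D below 0.

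The most abundant sequence, the 24 nt form of miR-263a-5p, known from sensory organs, took 451680 and 476500 RPM with Ago2 and 34385 and 23016 RPM with Ago1 (D 0.66). Because it makes up so much of both Ago2 libraries, the RPM of every other sequence with Ago2 is relative to it. The 19 nt form of the arm went from 10882 to 36000.4 RPM with Ago2 and from 592 to 758 RPM with Ago1 (D 1.37). In RPM the others of the 10 most abundant sequences stayed within 2-fold, apart from miR-956-3p at 23 nt: miR-184-3p 22 nt had a D of 0.26, miR-8-3p 23 nt 0.21, bantam-3p 23 nt 0.86, miR-277-3p 22 nt -0.58, miR-956-3p 22 nt -0.85 and miR-281-2-5p 23 nt -0.52. Under TMM scaling the 22 nt forms of miR-956-3p with and without the inside start had -1.30 and -1.23, miR-184-3p, miR-8-3p and miR-10-5p turned to -0.13, -0.18 and -0.22, and under median-of-ratios scaling miR-277-3p 22 nt had -1.06.

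The strands of the miR-263b hairpin moved in opposite directions. The 22 nt form of miR-263b-3p was the sequence with the highest ratio at 3 d, at 5.29 and 11.1 RPM with Ago1 and at 4375 and 1181 RPM with Ago2, and its log2 ratio went from 9.44 to 6.61 (D -2.83, interval -3.24 to -2.66). The 23 nt form of miR-263b-5p was at 26.1 and 9.34 RPM with Ago1 and at 41.1 and 248 RPM with Ago2 (D 3.95, interval 3.83 to 4.32). Its 21 nt annotated form, with 810 and 291 reads with Ago1 and 6 and 203 reads with Ago2, had a D of 3.64, or 5.19 without the pseudocount. The Ago2 level thus differed in sign between the strands: it fell by 1.89 on the log2 scale for the 3' strand and was higher by 2.56 for the 23 nt 5' strand. Passenger strands (the strand of a hairpin that is usually discarded) were otherwise near the median of all sequences. Of 44 passenger sequences from 12 of 15 listed arms, 9 were higher and 3 lower with a median D of 0.21, which was below 0 under the other scalings; of 96 guide sequences from 15 of 16 arms, 31 were higher and 9 lower with a median of 0.42, which was 0.07 or less under the other scalings.

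Arms of 2 testis clusters were the list with the lowest D. Of 19 sequences from 8 of 9 arms, 9 were lower by at least 2-fold (against 8.7% of all sequences) and 2 higher, and the median D was -0.75, or -1.13 to -1.32 under the other scalings. The levels were lower at 30 d in 18 of 19 sequences with Ago1 and in 18 of 19 with Ago2. Pooled over the 2 clusters they were lower by more with Ago2, at medians of -0.82 with Ago1 and -1.39 with Ago2 on the log2 scale. In whole animals less RNA per cell and fewer cells of a type cannot be told apart. The miR-959-3p form of 21 nt that starts 1 nt before the annotated start had a D of -1.14. The 22 nt form of miR-985-3p, far higher in RPM with Ago2 than with Ago1, had a D of -1.05. For miR-962-5p D was -1.95 at 22 nt and -1.02 at 25 nt. The cluster from mir-959 to mir-964 had 7 of 10 sequences lower and none higher. Its median D was -1.04, with median log2 age changes of -0.47 with Ago1 and -1.53 with Ago2. The other, from mir-982 to mir-985, had 2 of 9 lower, both of miR-985-3p, and 2 higher, both of miR-982-5p. The median D of this second cluster was -0.004, with median age changes of -0.83 with Ago1 and -0.62 with Ago2. A larger fall with Ago2 was thus seen over the first cluster only.

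The let-7 complex, 3 miRNAs made from a common transcript, was among the lists with the highest D. Of 22 sequences 10 were higher (against 26.5% of all) and none lower, with a median D of 0.93 that stayed between 0.49 and 0.59 under the other scalings. It was carried by let-7-5p and miR-125-5p. The 21 nt form of miR-125-5p was at 310 and 395 RPM with Ago1 and at 1519 and 4891 RPM with Ago2 (D 1.34), while its annotated 22 nt form was at 972 and 934 RPM and at 2237 and 2573 RPM (D 0.26). The forms of miR-100-5p had D values from -0.68 to 0.03. With Ago2 18 of the 22 sequences were higher at 30 d, and with Ago1 11 of 22.

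The counts of the next lists are read against all 540 sequences, of which 26.5% were higher and 8.7% lower. Nervous system arms, 12 sequences of miR-210-3p, miR-1000-5p and miR-932-5p, lay as high as the let-7 complex, with 5 higher and 1 lower and a median of 0.96 (0.60 to 0.68 under the other scalings). The cluster of miR-34, miR-277 and miR-317 had 9 higher and 5 lower of 24, with a median of 0.11 that was below 0 under the other scalings. Known substrates of Nibbler, a list with many forms of miR-263a-5p, had 20 higher and 3 lower of 47 and a median of 0.79. Under TMM, median-of-ratios and the reduced totals their split was 9 to 5, 6 to 6 and 9 to 6, with medians of 0.41, 0.32 and 0.41. For the K box seed family 7 of 22 (31.8%) were higher and 0 lower (median 0.58), and for muscle arms 3 of 10 higher and 1 lower (0.59), shares of higher sequences near the 26.5% of all. Both medians stayed above 0 under each scaling, but the K box count was 3, 2 and 3 under the other scalings. Arms known from fat body, gut and insulin signalling had 23 higher and 4 lower of 58, with a median of 0.21 that was below 0 under median-of-ratios scaling and under totals without the 10 most abundant sequences. As a check of the tissue, miR-1-3p, miR-133-3p and miR-8-3p were listed in each library. miR-124-3p, which marks neurons, stood at no more than 9.68 RPM, and 4 listed arms of the early embryo reached at most 8.22 RPM. The embryo arm miR-5-5p stood at 2.45 and 8.22 RPM with Ago2, above miR-124-3p at 0.296 and 0.666 RPM. With Ago1 it was below, at 4.43 and 6.69 RPM against 6.46 and 9.68 RPM. These 2 markers therefore do not separate a tissue that is present from one that is absent.

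**Figure D5:**
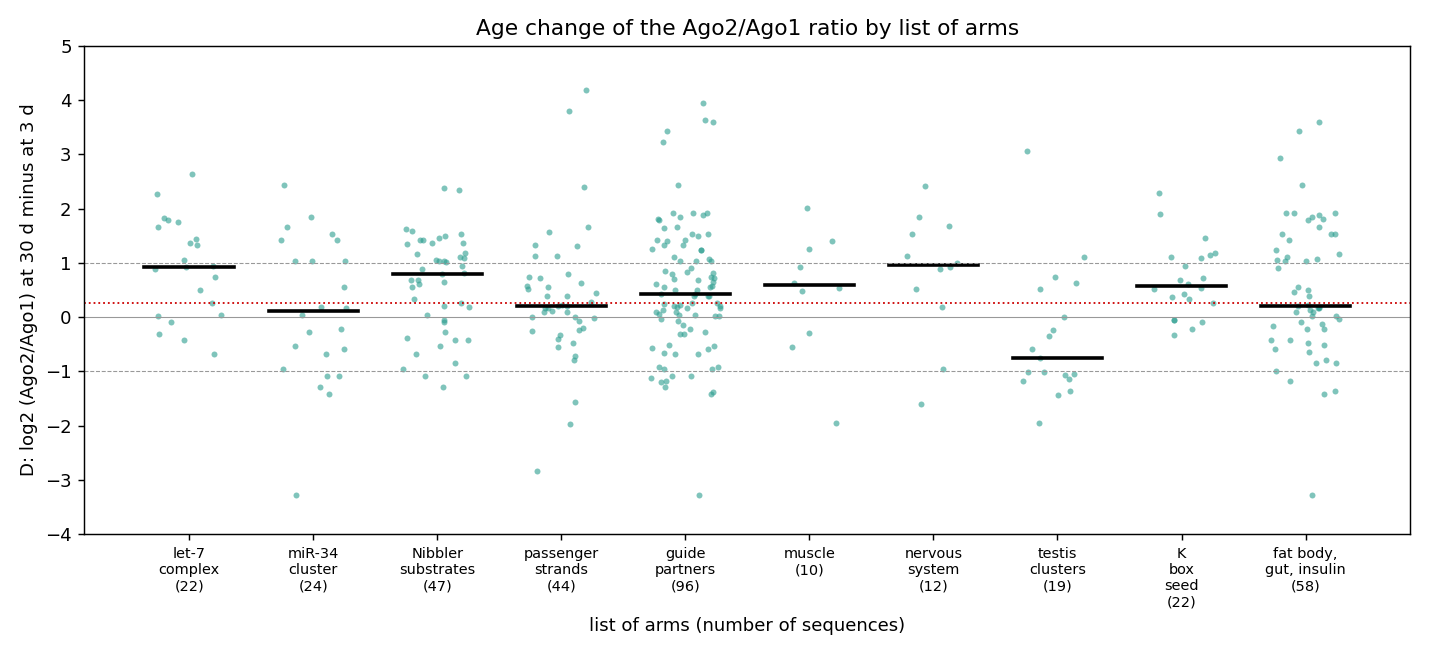
D of each sequence in 10 lists of arms, with medians as black bars, the median of all 540 sequences (0.26) as a red dotted line and dashed lines at 1 and -1; an arm can stand in more than 1 list. The testis clusters have the lowest median (-0.75), and the nervous system arms (0.96) and the let-7 complex (0.93) the highest.

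Several of the highest and lowest D values rest on few reads. The highest was that of the 18 nt form of the 5' strand common to miR-276a and miR-276b, at 0.0751 and 0.643 RPM with Ago1 (2 and 17 reads) and at 5.34 and 174 RPM with Ago2; D was 4.18 with the pseudocount and 1.93 (95% interval -0.21 to 4.07) without it. Its 17 nt form, at 1.01 and 1.70 RPM with Ago1 and at 121 and 857 RPM with Ago2, had a D of 2.40. Both forms were higher at 30 d with both proteins, and their levels with Ago1 stood near or below the pseudocount. The 17 nt form of miR-14-5p, with 2 reads at each age with Ago1 and 2.59 and 49.0 RPM with Ago2, had a D of 3.80, or 4.23 (1.36 to 7.10) without the pseudocount. For the 19 nt forms of miR-9a-5p (3.37), miR-982-5p (3.07) and miR-993-3p (2.90), which were lower at 30 d with Ago1, the Ago2 library at 3 d held 4, 1 and 2 reads. Without the pseudocount their D values were 4.91 (3.43 to 6.39), 5.25 (2.31 to 8.20) and 4.47 (2.35 to 6.59). The 19 nt form of miR-14-3p that starts 1 nt inside rested on 43 reads there, and had a D of 3.44 with Ago2 levels of 3.19 and 38.4 RPM.

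At the low end, the 21 nt form of miR-1-3p (D -1.95) had 2 reads with Ago2 at 3 d, and without the pseudocount its D was -0.22 (-2.30 to 1.85), so no change was detectable at this depth. The 20 nt form of miR-957-3p (-1.82) had 5 reads there and -1.03 (-2.40 to 0.33) without the pseudocount. Better supported were both forms of miR-92a-3p, which were level with Ago1 and lower with Ago2. The 22 nt form stood at 119 and 123 RPM with Ago1 and at 42.2 and 12.4 RPM with Ago2 (D -1.73), and the 21 nt form had a D of -1.70. The 21 nt form of miR-8-5p starting 1 nt inside, at 96.1 and 92.1 RPM with Ago1 and at 273 and 66.5 RPM with Ago2, had a D of -1.96 (-2.09 to -1.87). A 23 nt form of miR-956-3p starting 1 nt inside had -1.80. Among unnamed arms, the 15 highest values included 3.54 and 2.75 and the 15 lowest included -2.42, -1.99, -1.88 and -1.71; the first of the low ones had 10 reads with Ago1 at 3 d and none at 30 d, where a count of 0 allows up to 3 reads, or 0.113 RPM.

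At the abundance limit itself, the sequences just inside were miR-987-5p at 22 nt with a start 1 nt inside (mean 10.1 RPM, D 0.45) and miR-312-3p at 20 nt (10.2 RPM, D 0.75). Just outside were miR-956-3p at 24 nt (9.97 RPM, D -0.81) and miR-14-3p at 20 nt with a start 2 nt inside (9.94 RPM, D 1.14).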

How the data were processed

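Small RNAs from Ago1 and FLAG-HA-Ago2 immunoprecipitates of whole male flies were sequenced after TruSeq small RNA library preparation, per the labels' protocols. The authors deposited raw read counts per distinct sequence, without normalization. CASAVA 1.8.2, Bowtie and the build dm3 are named in the submitters' processing notes. How adapters were trimmed, reads aligned and the lists filtered is not given in the sources used here. Repeated lines of a sequence (up to 5, always of the same count) were used once, which touched 26 of the 540 sequences.

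Counts were divided by the listed reads of their library. Sequences of 16 to 44 nt were joined into 632 arms by exact overlap of 14 nt or more, where 5' ends lay within 8 nt and 3' ends within 10 nt of each other. Near-identical copies can share short forms. Names were given to 111 arms from background knowledge; all had a hairpin and a mature length in the BDGP6 annotation (Ensembl), and the most abundant form had that length in 66 and lay within 1 nt of it in 93. Mature sequences were not used here, so the annotated form is the most abundant listed form of the annotated length, in place of the database sequence that had been planned. Coordinates are not given because the builds differ.

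D values were computed with pandas 2.3.3 and numpy 2.4.6 (Python 3.11.15) and tested on simulated data. Intervals are from the delta method on raw counts without the pseudocount, and reads are not independent molecules. edgeR 4.0.16 (TMM) and DESeq2 1.42.0 (median of ratios) served only for scaling factors. The text names the 15 highest and 15 lowest D values, the 10 most abundant sequences, the 8 arms at each end of the comparison of 3' forms, members of the lists, and further forms of those arms chosen after their values were seen. The sequences, arms and lists were chosen with earlier results of these data known.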

Additional observations from a re-analysis of the deposited data

Results flagged for a closer look

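For 5 sequences the level changed by at least 2-fold in opposite directions with the 2 proteins, lower at 30 d with Ago1 and higher with Ago2, which is what drew attention to them. With 1 library per group the difference was not tested. The 23 nt form of miR-263b-5p changed by -1.39 with Ago1 and by 2.56 with Ago2 on the log2 scale (D 3.95), and its 21 nt form by -1.39 and 2.25 (D 3.64). For the 19 nt form of miR-8-3p that starts 4 nt inside, the changes were -1.94 and 1.66 (D 3.60). The 26 nt form of miR-10-5p changed by -1.66 and 1.75 (D 3.41). A 21 nt form of miR-263a-5p that starts 3 nt inside, at 15.8 and 5.86 RPM with Ago1 and at 71.5 and 149 RPM with Ago2, changed by -1.29 and 1.04 (D 2.34).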

How the results depend on the processing

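No paired analysis was possible because each group has 1 library, and for the same reason no library could be left out. Against 143 higher and 47 lower sequences with a median D of 0.26, TMM scaling gave 86, 80 and -0.052, median-of-ratios scaling 78, 88 and -0.14, and totals without the 10 most abundant sequences 88, 79 and -0.050. A minimum of 1 RPM gave 285 and 98 of 1233 sequences, a minimum of 100 RPM 42 and 16 of 202, and summed arms 24 and 10 of 149, where the number of features differs. Pseudocounts of 0.1 (148 and 48) and 10 (100 and 37), leaving out sequences listed more than once (135 and 47), and a minimum on the 3 d libraries alone, added after seeing the data (141 and 41 of 517), stayed within 1.5 times. The 3'-short forms had the higher D in 44 of 80 arms and the lower in 36; with short meaning at least 3 nt these were 19 and 23 of 42, and with a minimum of 100 RPM 25 and 18 of 43. Forms starting inside gave 27 and 14 of 41 arms, and 9 and 7 of 16 with a minimum of 100 RPM. Forms of at most 19 nt against 20 or 21 nt gave 21 and 10 of 31, and 7 and 3 of 10 with that minimum. The last 2 comparisons and their alternatives were chosen after seeing the data. Of 40 named sequences, miR-184-3p 22 nt, miR-8-3p 23 nt and miR-10-5p 22 nt had a D above 0 in RPM and below 0 under the 3 other scalings; none with a D past 2-fold changed sign. TMM scaling moved 18, median-of-ratios scaling 22 and a pseudocount of 10 16 of them by more than their counting interval. Depth limits values below about 1 RPM, above all with Ago2 at 3 d, where 3 reads are 0.222 RPM.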
